A study of Mus musculus with 9 samples.

Results

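Complement is a protein cascade that tags cells, debris and, in the developing and diseased brain, synapses for removal. The genes described here are 8 of the 54532 gene rows of the count tables; they were found by symbol after matching the Ensembl identifiers to the GENCODE M21 annotation of GRCm38. They are C1qa, C1qb and C1qc, C4b, C3, the inhibitor gene Serping1, and the receptor genes C3ar1 and C5ar1. All 8 symbols matched, and 7 passed the filter on low counts over the 9 libraries. C5ar1 did not.

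The 9 libraries were poly(A)+ RNA-seq libraries of mouse striatum, the deep forebrain nucleus that receives cortical and dopaminergic input. Mice without cGAS (cGAS KO), mice without STING (STING KO) and wild-type mice (WT) gave 3 libraries each, all labelled C57BL/6J, with both knockouts made by CRISPR-Cas9. The series describes brains taken after ischemic stroke, without an uninjured group, a time after stroke, an age or a sex in the labels. cGAS senses DNA in the cytosol and answers by producing cGAMP, a small molecule that switches on STING in the endoplasmic reticulum membrane.

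In the classical pathway, the chains C1qa, C1qb and C1qc assemble into C1q, which binds a target and activates the proteases C1r and C1s. These cleave C4 and C2 to form an enzyme that cleaves C3, and the fragments C3a and C5a act on the receptors encoded by C3ar1 and C5ar1. Serping1 encodes C1 inhibitor, which blocks C1r and C1s. In brain, C1q is made mainly by microglia, whereas C4 is also made by astrocytes and neurons. In whole tissue, fewer cells of a type and less RNA per cell cannot be told apart.

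The 3 C1q genes lie close together on chromosome 4, on the minus strand of GRCm38: C1qb (ENSMUSG00000036905) at 136880129 to 136886187, C1qc (ENSMUSG00000036896) at 136889804 to 136893065 and C1qa (ENSMUSG00000036887) at 136895917 to 136898803. The 300-base windows around the starts of C1qb (chr4:136886151-136886450) and C1qc (chr4:136892865-136893164), from RefSeq on GRCm38.p6, are shown on the gene strand. No window was at hand for C1qa. Whether promoter sequence has a part in the C1q levels was not tested. Capitals mark a match to GAGGAA, the core of the site bound by the myeloid factor PU.1, on either strand.

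C1qb: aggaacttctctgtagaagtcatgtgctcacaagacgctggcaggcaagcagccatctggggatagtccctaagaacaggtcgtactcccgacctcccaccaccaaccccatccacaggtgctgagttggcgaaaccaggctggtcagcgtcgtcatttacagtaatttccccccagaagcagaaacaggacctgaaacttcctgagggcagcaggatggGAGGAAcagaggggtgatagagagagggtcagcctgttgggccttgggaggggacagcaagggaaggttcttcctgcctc

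C1qc: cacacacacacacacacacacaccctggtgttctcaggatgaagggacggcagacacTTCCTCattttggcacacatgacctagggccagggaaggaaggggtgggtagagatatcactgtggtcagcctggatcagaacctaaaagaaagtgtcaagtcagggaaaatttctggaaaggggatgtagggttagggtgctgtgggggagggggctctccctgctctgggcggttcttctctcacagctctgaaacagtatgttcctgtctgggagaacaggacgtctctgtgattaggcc

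The match lies at -30 from the RefSeq start in C1qb and, as its reverse complement, at -193 from the RefSeq start in C1qc. These RefSeq starts differ from the starts of the GENCODE M21 spans given above, and the C1qc one lies inside its span. Of 32851 promoter windows of this length, 28.28% hold GAGGAA on either strand, so a match is common. RefSeq windows were at hand for 5 of the 8 genes. GAAANNGAA, the shortened interferon-stimulated response element, matched in the C5ar1 window and in 8.56% of all windows. TTCNNNGAA, the gamma-activated site, is in 8.298% of all windows and GGACTTTCC, an NF-kB site, in 0.344%, and neither matched in the 5. No motif of the 4 matched in the C3 and C3ar1 windows.

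The libraries held 14129021 to 21286775 counts, and all of them contained striatal neuron markers such as Ppp1r1b and Drd1. The targeted genes were low but present: Cgas had 19, 5 and 4 counts in cGAS KO libraries, 25, 15 and 26 in STING KO libraries and 31, 49 and 45 in WT libraries. Sting1 had 35, 15 and 33 counts in STING KO libraries, 46, 22 and 42 in cGAS KO libraries and 90, 56 and 19 in WT libraries, so one WT library (1.341 CPM) and one cGAS KO library (1.658 CPM) lay within the range of the STING KO libraries (1.043 to 2.173 CPM). For Cgas, the highest cGAS KO library (1.101 CPM) lay above the lowest STING KO library (1.043 CPM), so neither targeted gene separates the labels in every library. Gene counts do not show whether the remaining transcripts are edited. One library of each group stood apart: cGAS KO replicate 2 had 4723 genes with 1 to 9 counts, STING KO replicate 2 had 2280 and WT replicate 3 had 4699, against 7096 to 7927 in the other 6. They are called libraries of low complexity, and results are given with and without them. Among the other 6, Sting1 was at 1.842 and 2.173 CPM in STING KO libraries and at 2.665 to 4.058 CPM elsewhere. Cgas was at 0.2617 and 1.101 CPM in cGAS KO libraries there, and at 1.398 to 2.627 CPM elsewhere. Over all 9 libraries, Cgas was lower in every cGAS KO library than in every WT library (lowest 1.398 CPM).

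No complement gene passed the test for a difference between genotypes. With edgeR's quasi-likelihood test over all 9 libraries, 0 of the 7 tested complement genes passed an adjusted p of 0.05 in any of the 3 comparisons, beside 0% of all 17821 genes. DESeq2 and limma-voom also called 0 of them. On simulated data the edgeR fit over 9 libraries recovered 3% to 15% of 2-fold changes. A lack of calls therefore does not show that differences of this size are absent. At an unadjusted p under 0.05, edgeR had 1 complement gene for cGAS KO over WT, 1 for STING KO over WT and 0 for STING KO over cGAS KO. That gene was C4b both times. DESeq2 gave the same 3 counts and limma-voom gave 0, 0 and 0. With low complexity as a covariate edgeR had 1 (C4b), 3 (C1qa, C1qc and C4b, all higher in STING KO) and 2 (C1qc higher and Serping1 lower in STING KO), with adjusted p from 0.6189 to 0.875. Over all 17821 genes, edgeR without the covariate had 361, 291 and 258 genes at an unadjusted p under 0.05, in the same order of comparisons. With the covariate it had 1407, 906 and 848. DESeq2, on a larger set of 31936 genes, had 589, 586 and 559, and limma-voom had 310, 282 and 211 of 17821.

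**Figure D1:**
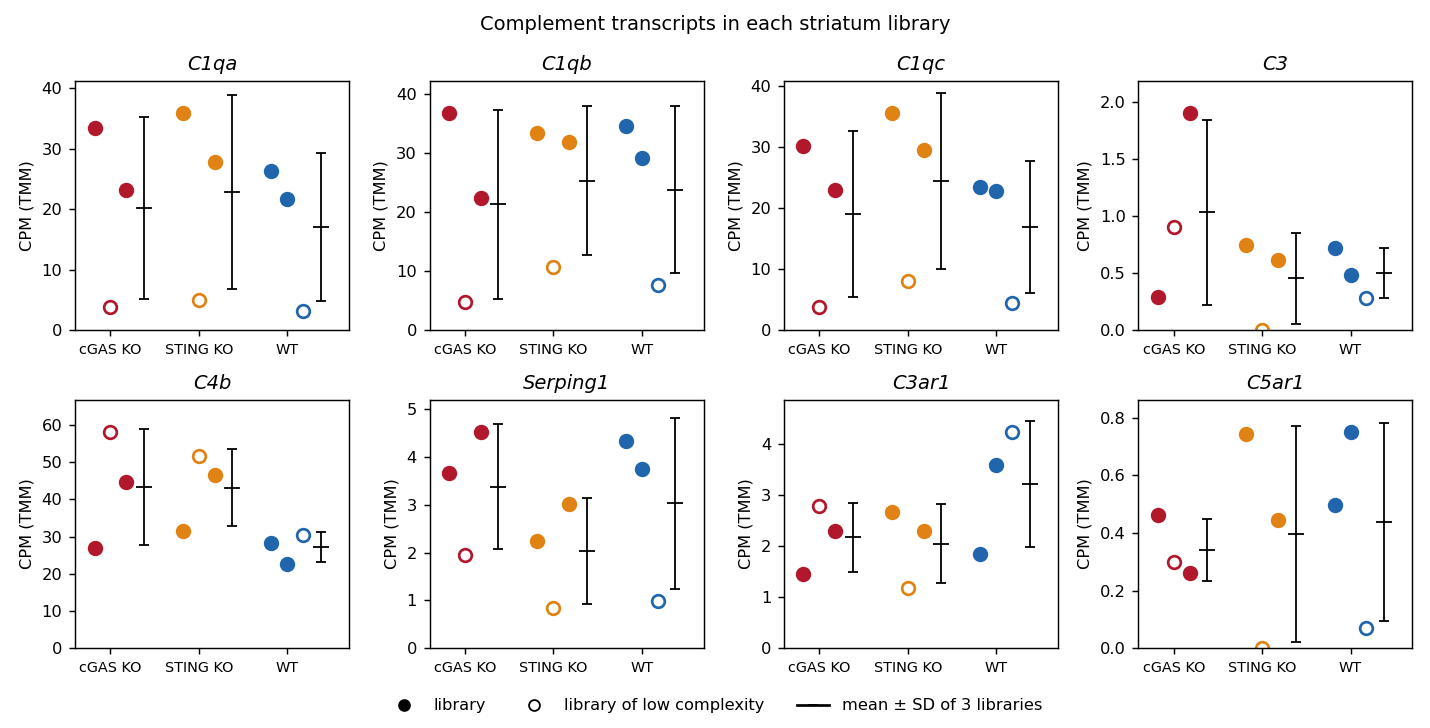
Level of each complement gene in each library, in CPM, the count scaled to library size with TMM factors (linear axes from 0), for cGAS KO, STING KO and WT. Open circles are the libraries of low complexity and bars are the mean ± SD of 3 libraries; the C1q genes are lowest in the open circles of all 3 groups, whereas C4b is highest there.

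C1qa had 33.43, 3.84 and 23.23 CPM in cGAS KO libraries, 35.83, 4.94 and 27.80 CPM in STING KO libraries and 26.24, 21.71 and 3.11 CPM in WT libraries. In each group one library, the one of low complexity, was far below the other two, and the groups overlapped. The fitted log2 fold change was 0.24 (SE 0.92, 95% interval -1.82 to 2.31) for cGAS KO over WT, and 0.42 (SE 0.92, -1.64 to 2.49) for STING KO over WT, so the interval covers changes of more than 2-fold either way. Without the libraries of low complexity it was 0.24 (SE 0.22, -0.26 to 0.74) for cGAS KO and 0.41 (SE 0.22) for STING KO, each over WT.

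C1qb had 36.73, 4.75 and 22.38 CPM in cGAS KO libraries, 33.40, 10.71 and 31.82 CPM in STING KO libraries and 34.59, 29.11 and 7.69 CPM in WT libraries. C1qc had 30.13, 3.77 and 22.97 CPM in cGAS KO libraries, 35.52, 8.07 and 29.53 CPM in STING KO libraries and 23.40, 22.79 and 4.45 CPM in WT libraries. Both, like C1qa, were lowest in the library of low complexity of each group, and the groups overlapped. Without the 3 libraries of low complexity, C1qc had a log2 fold change of 0.49 (SE 0.18, 95% interval 0.08 to 0.91) in STING KO against WT. Its unadjusted p was 0.0250 and its edgeR adjusted p 0.697, where 0.0227% of genes were called, so it did not pass. In that edgeR fit 1 of 8 complement genes and 1219 of 17657 genes had an unadjusted p under 0.05. In STING KO against cGAS KO the same 6 libraries called 0 complement genes, beside 0.017% of all genes.

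In the 3 libraries of low complexity the summed C1q level was 12.36, 23.72 and 15.25 CPM, against 68.57 to 104.7 CPM in the other 6. C1qa stood at 13.57% of the mean of the other libraries of its group in the cGAS KO one, at 15.52% in the STING KO one and at 12.95% in the WT one. The mean log2 difference was -2.79 for C1qa, and 0.410% of tested genes were as low. It was -2.37 for C1qc (1.30% as low) and -2.06 for C1qb (2.19% as low), against a median of -0.07 over all genes. These are descriptions of libraries set apart by their counts, with no test.

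The C1q drop was not shared by every microglia marker. Of 18 microglia markers, 8 had a mean log2 difference under -1, beside 2231 of all 17821 tested genes. Lowest among the markers were Tyrobp, a signalling adaptor, at -3.16, and the protease gene Ctss at -2.37. The chemokine receptor gene Cx3cr1 was at -0.03, Csf1r, the receptor for the microglial survival factor CSF1, at -0.34, and Siglech at 0.53. The summed level of the 18 markers was 458.5, 402.5 and 390.8 CPM in the 3 libraries of low complexity and 519.0 to 737.9 CPM in the other 6. Markers of lymphocytes were near 0, with Cd3d and Nkg7 at 0 in all 9.

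**Figure D2:**
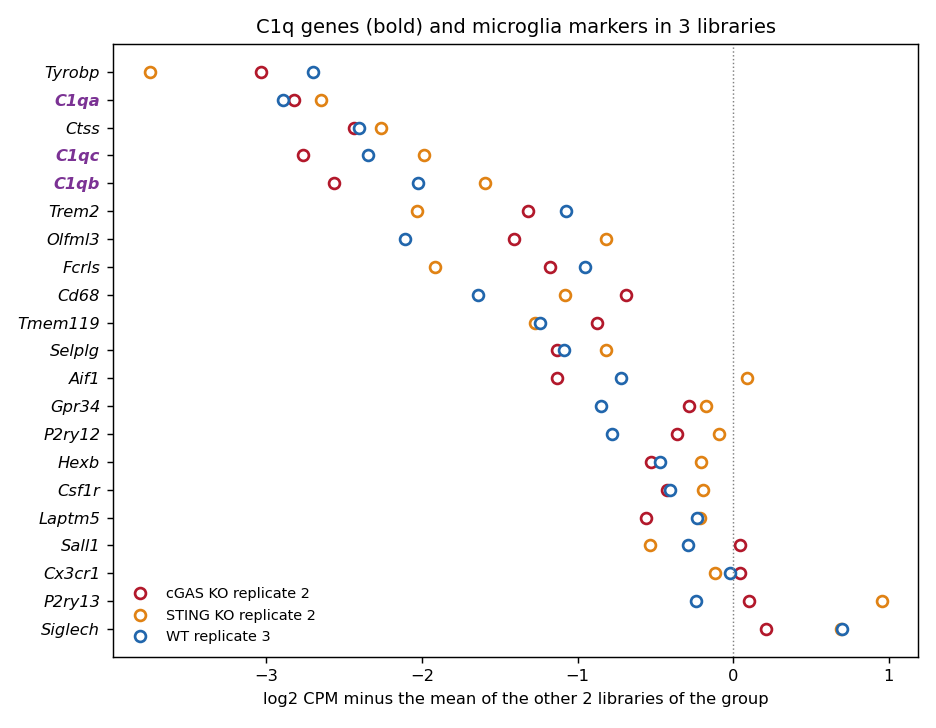
Difference of the 3 C1q genes (bold) and 18 microglia markers in each library of low complexity from the mean of the other 2 libraries of its group (log2 CPM, horizontal axis), ordered by their mean. C1qa, C1qb and C1qc lie with Tyrobp and Ctss at the low end, while Cx3cr1 lies near 0.

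Annotated transcript length moved with this drop. Genes with up to 1500 exonic bases had a median log2 difference of -0.51 in the libraries of low complexity, and 35.14% of them were under -1; over 6000 bases the median was 0.283, with 1.044% under -1. C1qa has 1040 exonic bases, C1qb 1088, C1qc 1931, Serping1 2325, C3ar1 4305 and C4b 5695. Of these genes the 4 shortest had the lowest values and C3ar1 (0.09) and C4b (0.48) were near or above 0, while C3 (5143 bases) was at -1.13 on few counts. Other complement genes did not all follow length: C8g (1493 bases) was at 0.32 and Cd59a (1811 bases) at 0.72, whereas Itgam (5024 bases) was at -1.33 and C4a (6206 bases) at -0.79. C8g (599 counts) overlaps Fbxw5 (13074 counts) on the opposite strand, which may affect its counts. The part of length in the C1q levels was not tested.

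**Figure D3:**
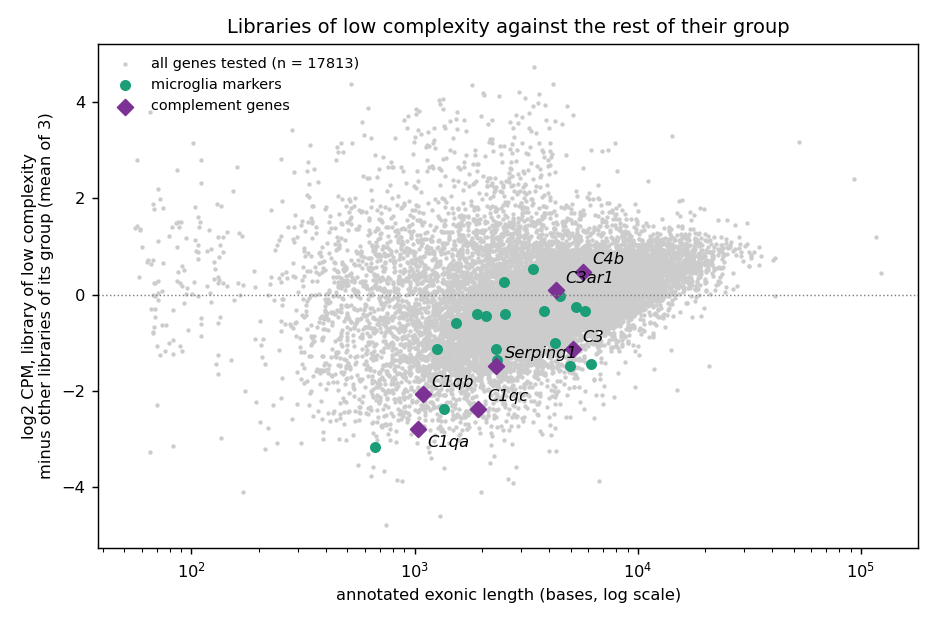
Annotated exonic length (bases, log axis) against the mean log2 CPM difference of the 3 libraries of low complexity from the rest of their groups, for 17813 tested genes with a length (grey), 18 microglia markers (green) and 7 complement genes (purple). The C1q genes lie low on the short side, and C4b lies above 0 on the long side.

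The proportions of the chains were close in most libraries. In the 6 other libraries C1qa gave 32.2 ± 1.87% of the C1q counts, C1qb 36.2 ± 3.65% and C1qc 31.6 ± 2.39% (SD, n = 6, genotypes pooled). In the 3 of low complexity these shares were 24.1 ± 6.07%, 44.7 ± 6.04% and 31.2 ± 2.51% (SD, n = 3, genotypes pooled). Over all 9 libraries the C1qb share was 39.55% to 50.46% in WT, 32.63% to 38.41% in cGAS KO and 31.89% to 45.16% in STING KO. A difference in shares between genotypes was not tested. Per kilobase of exon, over the 6 other libraries, C1qb was at 28.8 ± 4.68 RPKM and C1qa at 27.0 ± 5.37 RPKM, which do not differ beyond their spread. C1qc was at 14.2 ± 2.69 RPKM. Its lower value comes from its annotated exonic length of 1931 bases, as its share of counts was close to that of C1qa. Whether this length matches the transcripts present was not tested.

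The genes closest to the mean C1q pattern, by root mean square difference in centred log2 CPM over the 9 libraries, were Gm28437 (0.168), Ctss (0.262), mt-Atp6 (0.28), Pebp1 (0.285) and Edf1 (0.319). They include one microglia marker, Ctss, and all had fewer than 2000 exonic bases.

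C4b (ENSMUSG00000073418, chromosome 17, 34728380 to 34743882, minus strand) encodes complement component 4, whose cleavage follows C1q binding. It had 27.06, 58.10 and 44.56 CPM in cGAS KO libraries, 31.48, 51.61 and 46.50 CPM in STING KO libraries and 28.27, 22.73 and 30.49 CPM in WT libraries. One cGAS KO library lay within the WT range, and all STING KO libraries lay above it. C4b was the 1 complement gene whose STING KO and WT libraries did not overlap, as 7.09% of all genes did not; in cGAS KO against WT it was 0 complement genes, beside 7.99%, and in STING KO against cGAS KO 0, beside 7.34%. Without the libraries of low complexity, 4 of 8 complement genes did not overlap in STING KO against WT (C1qa, C1qc and C4b higher, Serping1 lower), beside 47.7% of all genes. In cGAS KO against WT it was 1 of 8 (C5ar1, lower), beside 29.4%, and in STING KO against cGAS KO 1 of 8 (Serping1, lower), beside 31.9%. These shares rest on 2 libraries a group.

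The fitted log2 fold change of C4b was 0.67 (SE 0.30, 95% interval 0.01 to 1.33) in both comparisons with WT, a 1.59-fold difference, with an unadjusted p of 0.0479 and an edgeR adjusted p of 0.9999. The comparisons share the 3 WT libraries. Without the libraries of low complexity, which had the highest C4b of each group, it was 0.49 (SE 0.27) for cGAS KO over WT, and 0.61 (SE 0.27) for STING KO over WT. Between STING KO and cGAS KO the log2 fold change was -0.00026, with an interval from -0.66 to 0.66.

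C4b shares 34.57% of its 50-base runs with its near copy C4a, and the other 7 complement genes share none with other genes, so reads of C4b and C4a may have been split or lost. C4a took 2.90% to 16.8% of the joint counts in cGAS KO libraries, 5.96% to 18.1% in STING KO libraries and 12.2% to 18.8% in WT libraries. With both genes summed, the log2 fold change was 0.54 for cGAS KO over WT, and 0.59 for STING KO over WT.

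**Figure D4:**
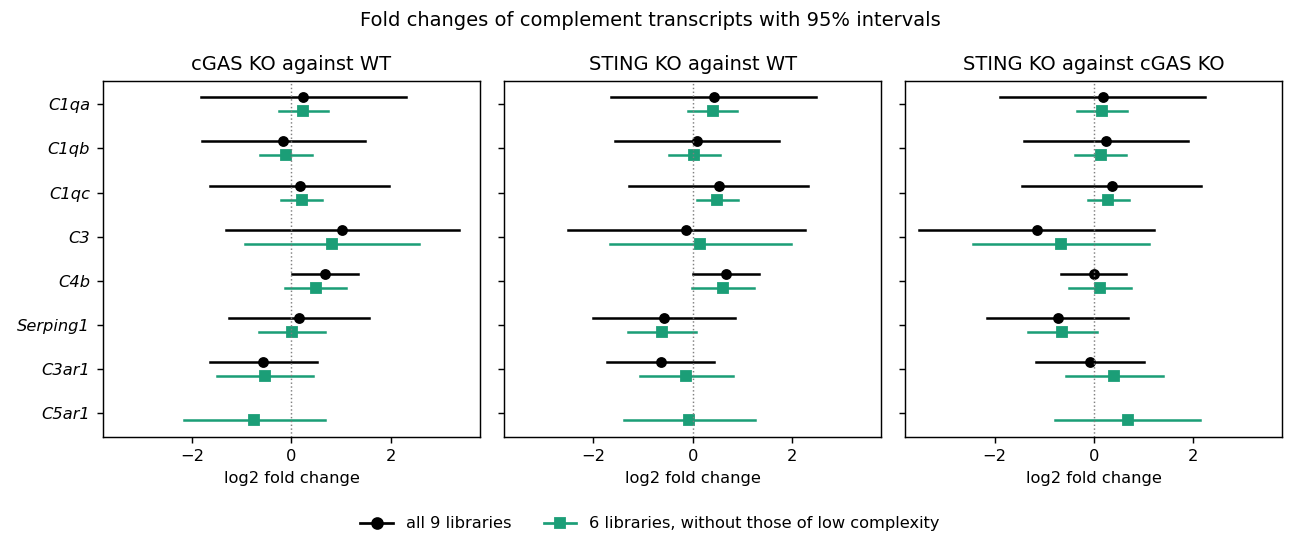
Log2 fold change of each complement gene with its 95% interval in the 3 comparisons, from edgeR over all 9 libraries (black circles) and over 6 libraries without those of low complexity (green squares). C5ar1 has a value only in the 6-library fit; C1q intervals are wide over 9 libraries and narrow over 6.

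C3 (ENSMUSG00000024164, chromosome 17, 57203970 to 57228136) is the central component on which all routes converge, and it was barely detected. It had 5, 12 and 29 counts in cGAS KO libraries, 12, 0 and 11 in STING KO libraries and 16, 9 and 4 in WT libraries, with overlapping groups. A count of 0 in STING KO replicate 2 allows up to 0.2087 CPM, for counting error only. The log2 fold change was 1.02 (SE 1.05) for cGAS KO over WT, and -0.13 (SE 1.06) for STING KO over WT. One library carried most of the cGAS KO value: without cGAS KO replicate 3, which had the 29 counts, it was 0.235, a fold of 1.18 against 2.03. The same library left out moved STING KO over cGAS KO to -0.359, against -1.15 with all 9.

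Serping1 (ENSMUSG00000023224, chromosome 2, 84765387 to 84775444) had 3.65, 1.96 and 4.51 CPM in cGAS KO libraries, 2.24, 0.83 and 3.01 CPM in STING KO libraries and 4.33, 3.75 and 0.99 CPM in WT libraries. As for C1q, the library of low complexity was the lowest of each group, at 48.0%, 31.8% and 24.5% of the others. The log2 fold change was 0.15 (SE 0.63) for cGAS KO over WT, and -0.58 (SE 0.63, 95% interval -2.00 to 0.85) for STING KO over WT, and the groups overlapped. Without the libraries of low complexity it was 0.01 (SE 0.29) for cGAS KO over WT, and -0.62 (SE 0.30) for STING KO over WT.

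The receptor gene C3ar1 (ENSMUSG00000040552, chromosome 6, 122847138 to 122856161) had 1.45, 2.79 and 2.29 CPM in cGAS KO libraries, 2.67, 1.18 and 2.29 CPM in STING KO libraries and 1.85, 3.59 and 4.24 CPM in WT libraries. The groups overlapped, with a log2 fold change of -0.57 (SE 0.48) for cGAS KO over WT, and -0.65 (SE 0.48) for STING KO over WT. Without the libraries of low complexity it was -0.54 (SE 0.42) for cGAS KO over WT, and -0.13 (SE 0.41) for STING KO over WT. C5ar1 (ENSMUSG00000049130, chromosome 7, 16246743 to 16259540) had 8, 4 and 4 counts in cGAS KO libraries, 12, 0 and 8 in STING KO libraries and 11, 14 and 1 in WT libraries. These counts are too few to order the groups. In the 6-library fit its log2 fold change was -0.75 (SE 0.62) for cGAS KO over WT, -0.06 (SE 0.58) for STING KO over WT and 0.68 (SE 0.64) for STING KO over cGAS KO.

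Per kilobase of exon, over the 6 libraries not of low complexity, the order below C1q was C4b (5.87 ± 1.72 RPKM), Serping1 (1.54 ± 0.365), C3ar1 (0.547 ± 0.171), C5ar1 (0.205 ± 0.0737) and C3 (0.154 ± 0.110). C5ar1 and C3 did not differ beyond their spread over libraries. Within these libraries C5ar1 was above C3 in all but cGAS KO replicate 3 (0.1018 against 0.369 RPKM), on few counts and with no test.

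The genes closest in pattern to the other complement genes, by the same measure, were Cand2 (0.122) and 2810459M11Rik (0.188) for C4b, and Tmem100 (0.229) and Ido1 (0.246) for Serping1. They were Grm8 (0.202) and Sertm1 (0.239) for C3ar1, Ccdc40 (0.452) and Pola1 (0.465) for C3, and Timm8b (0.254) and Tpm2 (0.26) for C5ar1. The root mean square of the pattern itself was 0.446 for C4b, 0.796 for Serping1, 0.526 for C3ar1, 1.066 for C3 and 0.909 for C5ar1. C3 had 0 to 29 counts and C5ar1 0 to 14, so their patterns may be counting error and the likeness carries little weight.

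Of 65 other complement genes, 40 were tested and 0 were called in any comparison, and 7 had 0 counts in all 9 libraries. At an unadjusted p under 0.05 there were 0 in edgeR over 9 libraries, at most 2 in DESeq2 and at most 1 in limma-voom. Over all genes a comparison had 258 to 361 of 17821 in edgeR, 559 to 589 of 31936 in DESeq2 and 211 to 310 of 17821 in limma-voom. Without the libraries of low complexity, edgeR had 2 of 41 for cGAS KO over WT, 4 for STING KO over WT and 2 for STING KO over cGAS KO, and with low complexity as a covariate 6, 3 and 0 of 40. Over all genes these counts were 742, 1219 and 653 of 17657 without those libraries, and 1407, 906 and 848 of 17821 with the covariate. Over all 9 libraries the median log2 fold change of the other complement genes was -0.062 for cGAS KO over WT and -0.035 for STING KO over WT, against -0.010 and -0.004 over all genes. Both medians changed sign without the libraries of low complexity, to 0.042 (23 positive, 18 negative) and 0.132 (27 positive, 14 negative). Groups did not overlap for 5 of the 40 in cGAS KO against WT (Vtn, Sez6l2 and C1ql1 higher, Cd55 and Cr1l lower), or 12.5% beside 7.99% of all genes. For STING KO against WT it was 2 of 40 (Colec11 higher, Colec12 lower), or 5.0% beside 7.09%. The most abundant tested genes of each role are named next, and none of them passed the adjusted threshold.

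Among classical and lectin pathway genes (5 of 15 tested), the protease gene Masp1 averaged 10.8 ± 1.26 CPM in cGAS KO libraries, 9.06 ± 1.68 CPM in STING KO libraries and 10.2 ± 0.779 CPM in WT libraries (SD, n = 3 each, here and in the values that follow). The scavenger receptor gene Colec12 averaged 7.44 ± 0.480 CPM in cGAS KO libraries, 5.39 ± 0.170 CPM in STING KO libraries and 7.69 ± 1.03 CPM in WT libraries. Its STING KO libraries lay below all others, with a log2 fold change of -0.51 (SE 0.23) over WT. In the alternative pathway 1 of 4 genes was tested: Cfp, the gene of properdin, which stabilises the C3-cleaving enzyme, averaged 16.2 ± 6.93 CPM in cGAS KO libraries, 18.9 ± 4.76 CPM in STING KO libraries and 13.2 ± 5.64 CPM in WT libraries. Of the terminal pathway, C7 had a log2 fold change of -0.89 (SE 0.57) for cGAS KO over WT and 0.001 (SE 0.55) for STING KO over WT. C8g was at 0.27 (SE 0.30) and 0.30 (SE 0.30) in the same comparisons.

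Of the soluble regulators (5 of 8 tested), Clu, which encodes clusterin, averaged 572 ± 279 CPM in cGAS KO libraries, 524 ± 259 CPM in STING KO libraries and 579 ± 333 CPM in WT libraries. In the libraries of low complexity the mean log2 difference was -1.70 for Clu and -1.05 for Cfp. Vtn, which encodes vitronectin, averaged 58.6 ± 8.12 CPM in cGAS KO libraries, 50.2 ± 9.60 CPM in STING KO libraries and 38.9 ± 14.2 CPM in WT libraries. The log2 fold change was 0.59 (SE 0.29) for cGAS KO over WT. Among membrane regulators, 6 of 6 tested genes had a negative fold change for cGAS KO over WT (median -0.492), beside 9169 of 17821 genes, and 4 of 6 for STING KO over WT (median -0.428). Over the 6 other libraries it was 5 of 6 for cGAS KO (median -0.302). Choroid plexus markers were negative in 7 of 7 (median -2.07) and cortical neuron markers in 5 of 6 (median -0.884) for cGAS KO over WT, and WT replicate 1 stood apart with 2744 CPM of summed choroid plexus markers; their part in these values was not tested. Of the membrane regulators, Cd46, a cofactor for C3b cleavage, averaged 10.9 ± 2.38 CPM in cGAS KO libraries, 13.1 ± 4.36 CPM in STING KO libraries and 20.7 ± 12.01 CPM in WT libraries, and Cr1l (Crry), the main rodent membrane inhibitor, had a log2 fold change of -0.24 (SE 0.24) for cGAS KO over WT.

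Among receptors (7 of 8 tested), Calr and Lrp1, whose products bind C1q-coated material and ferry it into the cell, each had a log2 fold change of 0.17 for cGAS KO over WT (SE 0.26 for Calr and 0.37 for Lrp1). Of the neuronal sushi domain genes, 3 of 8 were positive and 5 negative for cGAS KO over WT (median -0.374), and 2 positive and 6 negative for STING KO over WT (median -0.131). The 2 most abundant, Sez6 and Sez6l2, were at 0.31 (SE 0.21) and 0.25 (SE 0.18) for cGAS KO over WT. Over the 6 other libraries the list's medians were 0.053 and 0.182. The C1q-like synaptic genes C1ql3 and Cbln2 were at -1.94 (SE 0.98) and -1.81 (SE 0.81) for cGAS KO over WT. One library carried the WT level of both: C1ql3 was at 62.68 CPM and Cbln2 at 42.63 CPM in WT replicate 3, against 1.984 and 14.64 CPM for C1ql3 and 3.247 and 10.56 CPM for Cbln2 in the other WT libraries. Over the 6 other libraries the values were -1.03 (SE 0.76) for C1ql3 and -0.75 (SE 0.55) for Cbln2. The list of 6 tested genes then had 4 positive and 2 negative (median 0.235), against 1 positive and 5 negative (median -0.44) over 9 libraries. The summed cortical neuron markers ran from 72.5 to 446.0 CPM in cGAS KO libraries and from 64.48 to 1033 CPM in WT libraries, and their part in these values was not tested.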

How the data were processed

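The deposited files hold whole-number counts per Ensembl gene, 1 file per library; the submitters' processing notes name HISAT2, featureCounts and the mm10 build, without versions. Neither the strand nor the multi-mapping setting is stated. Counts of genes that overlap others on the opposite strand may be affected. Among them are C8g (599 counts, with Fbxw5 at 13074) and Cd46 (2169 counts, with A330023F24Rik at 9250). Of 54532 gene rows, 54495 matched GENCODE M21; the other 37 held at most 0.0361% of a library. The counts were fitted in R 4.3.3 with edgeR 4.0.16 (quasi-likelihood test, TMM factors, genes kept by filterByExpr), with 1 model over all 9 libraries. Benjamini-Hochberg adjustment covered 17821 genes at a threshold of 0.05. On simulated data with 100 changed genes of each size, the 9-library fit recovered 3%, 15% and 7% of 2-fold changes. The order is cGAS KO against WT, STING KO against WT and STING KO against cGAS KO. For 4-fold changes it recovered 81%, 77% and 78%. The 6-library fit recovered 70%, 77% and 64% of 2-fold changes. Unchanged genes called were 3, 6 and 3 over 9 libraries and 12, 38 and 15 over 6. DESeq2 1.42.0 and limma 3.58.1 (voom) were alternatives. CPM values are TMM-scaled, and RPKM values divide them by annotated exonic length. Floors are 3 counts and cover counting error only. Other complement genes were named as the 2 most abundant tested genes of a role list; genes of like pattern needed a mean of at least 5 CPM. The members and lists were chosen with earlier results of these data known. The labels do not say that replicates are separate animals, so p-values measure the spread between these samples, which may be technical. No 2 libraries of a group agreed within sampling noise (chi-square per degree of freedom at least 8.669). Leaving out or modelling the 3 libraries of low complexity and summing C4b with C4a were chosen after seeing the data.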

Additional observations from a re-analysis of the deposited data

How the results depend on the processing

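No complement gene was called under any of the alternatives run, and C4b stayed higher in both knockouts than in WT in all of them: its log2 fold change was 0.406 to 0.92 in cGAS KO against WT and 0.527 to 0.854 in STING KO against WT, with lowest adjusted p of 0.6189 and 0.721. Of 399 alternative fold changes of complement genes, 45 changed sign and 354 did not; 15 of the 45 were of C4b in STING KO against cGAS KO, whose value of -0.00026 is near 0, so that its sign carries no weight, and 30 were of other values. Genes called over the whole table, 0 in edgeR, were 1 with DESeq2 in cGAS KO against WT. In STING KO against WT they were 4 with no count filter, 4 in the 6 libraries left after removing those of low complexity, 1 when complexity entered as a covariate and 10 with DESeq2. In STING KO against cGAS KO they were 4, 3, 1 and 8 under the same settings. With the replicate number as a block, C1qa was -0.211 and C1qc -0.217 in cGAS KO against WT, and C1qb -0.092 in STING KO against WT. Of the same-numbered pairs, 4 of 9 correlated above 0.1 (range -0.447 to 0.502). The libraries of low complexity correlated at 0.469 to 0.533 with each other whatever their number, so these correlations cannot decide pairing. The numbers were not taken to pair samples. C3 was 0.157 in STING KO against WT without the 3 libraries of low complexity. In STING KO against cGAS KO, C4b was 0.007 with RLE size factors, 0.094 with library totals, 0.012 with no filter, 0.005 with a filter of 1 CPM or with DESeq2, 0.019 with the block, 0.017 with the 6 libraries compared, 0.124 without low complexity, 0.022 with it as a covariate, 0.054 with C4a added and 0.049 with limma-voom; C3ar1 was 0.020 with library totals and 0.409 without low complexity. Leaving out 1 library at a time gave these ranges. In cGAS KO against WT they were -0.333 to 0.732 for C1qa, -0.811 to 0.313 for C1qb, -0.338 to 0.651 for C1qc and -0.258 to 0.504 for Serping1. In STING KO against WT they were -0.068 to 0.896 for C1qa, -0.331 to 0.461 for C1qb and -0.651 to 0.429 for C3. In STING KO against cGAS KO they were -0.31 to 0.755 for C1qa, -0.225 to 0.899 for C1qb, -0.124 to 0.865 for C1qc, -0.247 to 0.266 for C4b and -0.316 to 0.195 for C3ar1; without cGAS KO replicate 1, C1qb moved by more than 1.5 times, to 0.899 there and to -0.811 in cGAS KO against WT. The cause of these sign changes was not tested. The biological coefficient of variation was 38.8% over 9 libraries and 17.2% over 6, which limits the C1q genes in the larger fit, and C3 and C5ar1 are limited by their counts.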
